A study of Homo sapiens with 12 samples.

Results

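The genes described here are 47 components of DNA replication and of the G1/S transition, among the 78932 gene rows of the study's merged tables. They were chosen by symbol from a given list, which was made with earlier results of these data known. The rule takes the row of highest summed count where a symbol is repeated, but no member's symbol was repeated. The study cultured THP-1, a human leukaemia line used as a model of monocytes, and sequenced poly(A)-selected RNA from 12 libraries in 4 groups of 3. The NC group was left untreated. The LPS group received LPS (bacterial lipopolysaccharide) and ATP, which the study used to induce pyroptosis, an inflammatory form of cell death. The CE group was that model plus 2 drugs, eltrombopag, a thrombopoietin receptor agonist and iron chelator, and the calcineurin inhibitor cyclosporin A. The CEL group received luspatercept, a trap for ligands of the TGF-beta family, in addition to both of those drugs and to LPS and ATP. Drugs were therefore present only together with LPS and ATP, and no group received luspatercept alone. No dose or time was used here. Nothing in the labels says that the 3 libraries of a group came from separate cultures, so a p-value sets a difference against the spread among libraries alone, which may be technical.

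Cells copy their genome once per cycle. In G1 the origin recognition complex, CDC6 and CDT1 load the MCM helicase onto origins, and at S phase entry CDC45, the GINS complex and MCM10 turn it into a moving fork. The clamp loader RFC then places PCNA on primed DNA, primase with polymerase alpha starts each strand, polymerases delta and epsilon extend it, and FEN1 and LIG1 join the lagging strand. E2F transcription factors, held back by the RB family and released by cyclin kinases, drive many of these genes as cells pass from G1 into S. THP-1 cells divide in culture.

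Because E2F is the textbook regulator of these genes, the promoter windows below show the E2F letters of 4 members and, for RRM2, the member with the smallest p in the comparison of CE with LPS, its CCAAT letters. Sequences are from RefSeq (GRCh38.p14), read 5′ to 3′ on the gene's strand. Capitals mark matches to TTTCCCGC, TTTGGCGC, TTTCGCGC or TTTGCCGC on either strand in the first 4 lines, and matches to CCAAT in the last. CDC6, POLE2 and RRM2 had the smallest p of their role in CE against LPS. RFC3 and MCM6 were chosen after their values were seen, RFC3 for its decrease in CE and MCM6 because it holds 4 matches, the most of any member.
CDC6 (chr17:40287849-40287908, plus strand): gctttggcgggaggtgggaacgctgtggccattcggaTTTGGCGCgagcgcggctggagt
POLE2 (chr14:49688186-49688245, minus strand): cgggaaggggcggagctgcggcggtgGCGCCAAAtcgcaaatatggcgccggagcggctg
RFC3 (chr13:33818068-33818127, plus strand): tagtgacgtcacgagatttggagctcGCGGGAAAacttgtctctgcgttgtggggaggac
MCM6 (chr2:135876560-135876619, minus strand): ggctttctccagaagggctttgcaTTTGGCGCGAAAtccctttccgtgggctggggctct
RRM2 (chr2:10122632-10122691, plus strand): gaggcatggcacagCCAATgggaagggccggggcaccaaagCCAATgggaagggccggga
In MCM6 the capitals hold a pair of overlapping matches, 1 on each strand.

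The table of promoters, each 250 bases before to 50 bases after a transcription start, held 40 of the 47 members. E2F letters were present in a promoter of 20 of the 40 (50%) and of 3.99% of all 27305 genes with a promoter of that length. CCAAT was present in 24 members (60%, against 39.7% of all genes). TTTGAA, the core of the CHR element found in many mitotic promoters, was present in 1 member (2.5%, against 18.2%). A match is a description of letters, and factor binding was not measured.

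Libraries held between 17737213 and 23183429 estimated counts, and 14065 genes passed the low-count filter. Of the members, 45 passed it. CDT1, which loads the helicase with CDC6, had 1 to 18 counts per library and POLD1, the catalytic subunit of polymerase delta, had 0 to 9, so neither was tested. Markers of T cells, B cells, erythroid and megakaryocytic cells, fibroblasts, epithelium and endothelium summed to at most 4.46 TPM (transcript abundance scaled for transcript length and library) per list in any library. Markers of the monocytic line summed to 431 TPM or more. Ribosomal RNA symbols took 17% of all TPM in NC 3 and 14.4% in LPS 1, against at most 0.0692% in the other 10 libraries, which lowers the TPM of every other gene in those libraries. Replication-dependent histone transcripts, which lack a poly(A) tail, took 0.0327% and 0.0251% of the counts there and 0.00199% to 0.00487% in the others. In the CE group, library CE 2 stood apart from CE 1 and CE 3 for GC-rich transcripts, and values without it are given beside the counts and members that it moves most.

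Values below are CPM, estimated counts scaled to a common library size with trimmed mean of M-values factors, in the order of replicates 1, 2 and 3. Changes are log2 changes of 1 edgeR quasi-likelihood fit over all 12 libraries, with p-values adjusted by Benjamini-Hochberg over the 14065 genes, and a gene is said to have risen or fallen where the adjusted p is under 0.05. Values with a sign, and those after "rose by" or "fell by", are on the log2 scale. Gene coordinates are those of the whole gene in GENCODE v29 on GRCh38. By the test over the 4 groups, 34 of 45 members differed, against 74.4% of all tested genes. Thus most members varied among the groups, as did most genes. Between genes, levels were compared as TPM. PCNA had the highest mean in NC, 347 ± 64.2 TPM (SD, n = 3), followed by TYMS at 303 ± 60.3 and MCM3 at 259 ± 53.8. Neighbours in this order differed by less than their SDs, which include the low TPM of NC 3. E2F2 at 0.0733 ± 0.0379 TPM, CDT1 at 0.133 ± 0.0306 and E2F1 at 0.327 ± 0.136 were lowest.

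**Figure D1:**
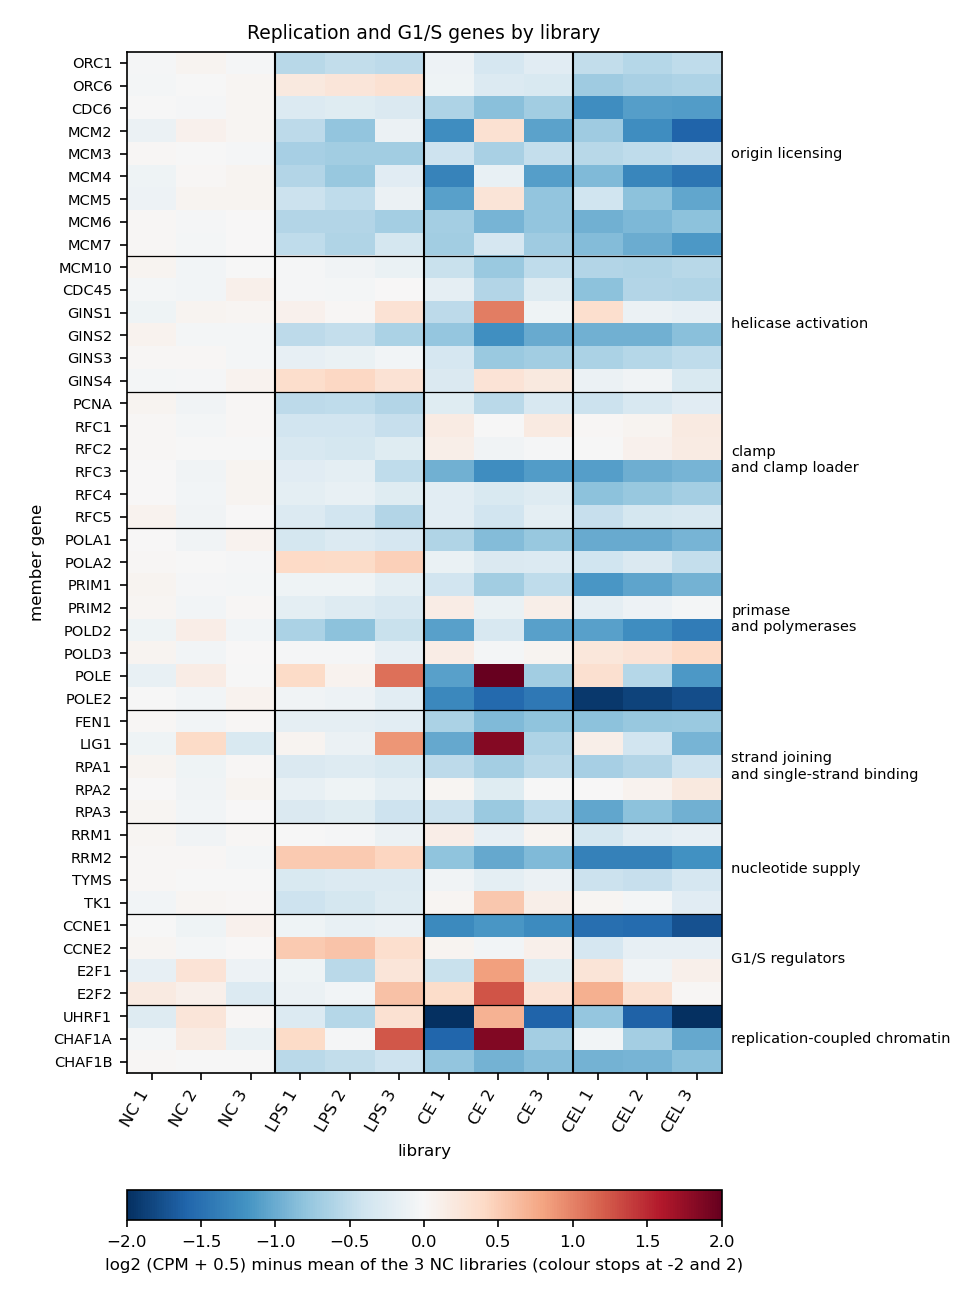
Each row is 1 of the 45 tested members, each column 1 library, and colour gives log2 (CPM + 0.5) minus the mean of the 3 NC libraries, blue for lower and red for higher. POLE2, RRM2 and CCNE1 are blue in all 6 CE and CEL libraries, and MCM2, POLE, LIG1, UHRF1 and CHAF1A are red in CE 2 alone of the 3 CE libraries.

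In the pyroptosis model, 21 of 45 members fell and 4 rose against NC, where 23.5% of all tested genes fell and 22.4% rose. The median change of the members was -0.20, against -0.01 for all tested genes. The decreases were spread over 7 of the 8 roles and none reached 2-fold, which 6.26% of all tested genes did. All 6 genes of the clamp and clamp loader and 5 of 9 tested licensing genes were among them. The 4 that rose were ORC6, POLA2, RRM2 and CCNE2. In a bulk culture, fewer cells in S phase and less of these transcripts per cell cannot be told apart. On log2(TPM + 1) with limma only 1 member, MCM3, remained among the lower genes, and 14 were lower once TPM had been rescaled between libraries by trimmed mean factors. Without NC 3 and LPS 1, 11 members were lower.

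With cyclosporin A and eltrombopag added to the model, 19 members fell relative to LPS and 7 rose, against 20.7% and 28.8% of all tested genes. The median was -0.15, while that of all genes was 0.08. Single libraries moved the members' median, to -0.35 without CE 2 (all genes -0.03), -0.03 without CE 1, -0.06 without CE 3 and -0.05 without LPS 3. RRM2, POLE2 and CCNE1 each fell by more than 2-fold, 3 of 45 members, as did 7.44% of all tested genes. Without CE 2, CHAF1A, UHRF1, POLE and LIG1 joined them, 7 of 45, against 13.1% of all tested genes. The 7 that rose were ORC1, MCM3, RFC1, RFC2, PRIM2, TYMS and TK1. Without CE 2 the counts were 25 lower and 12 higher, and without CE 3 the higher count was 4. On log2(TPM + 1), 7 were lower and 0 higher. Those 7 were ORC6, RFC3, POLA2, POLE2, FEN1, RRM2 and CCNE1.

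With luspatercept on top of both drugs, 15 members fell and 1, POLD3, rose relative to CE, against 14.8% and 8.78% of all genes. The median was -0.28, with -0.09 for all genes, and without CE 2 these were -0.11 and 0.01. None of the 15 decreases reached 2-fold (2.47% of all tested genes), and their number moved with the choices of analysis. With only the CE and CEL libraries in the fit 4 members were lower, without CE 3 there were 8, without NC 3 there were 9, and limma on log2(TPM + 1) gave 0 (8 after rescaling). POLD3 was not called without CEL 3. Relative to the LPS group the same CEL libraries had 26 members lower and 6 higher, against 27.2% and 28.7% of all genes, with a median of -0.51, and 3 of the 26 were 2-fold or more (12.2% of all genes). CE 2 enters the estimate of spread shared by all groups. Without it 30 members were lower and 8 higher in CEL against LPS, and 5 were lower by 2-fold or more (13.5% of all genes). With the untreated cells as the reference, 27 members were lower in CE and 0 higher (29.4% and 34.6% of all genes). In CEL, 31 were lower and 1, POLD3, was higher (33% and 34% of all genes). Decreases of 2-fold or more against NC were found in 4 members in CE (13.3% of all genes) and in 9 in CEL (17.4%), and without CE 2 the count in CE was 8 (16% of all genes). These comparisons share libraries, so their counts are not independent of each other.

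**Figure D2:**
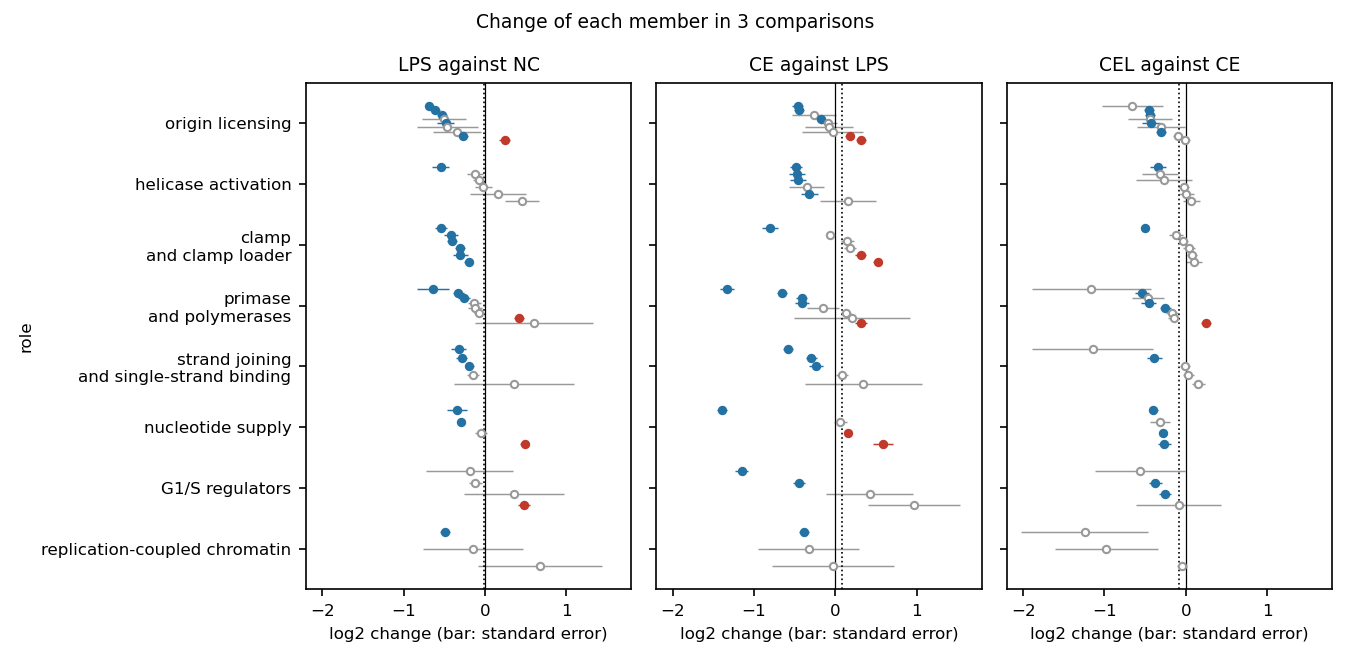
Each point is the log2 change of 1 member with its standard error, by role, for 3 comparisons. Filled blue points fell, filled red points rose and open grey points did not pass, and the dotted line is the median of all tested genes. The wide bars belong to members such as CHAF1A, POLE and LIG1, whose CE libraries differ most among themselves.

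Of the 8 roles, origin licensing was the only one with all tested members lower in CEL than in NC, 9 of 9, with a median of -0.89. Of all tested genes 33% were lower, with a median of 0.004. The calls of MCM2 and MCM5 were lost when single libraries were left out, as given below. CDC6 (chr17:40287633-40304657), the licensing ATPase, measured 122, 122 and 127 CPM in NC, 102, 105 and 101 in LPS, 80.8, 69.1 and 75.7 in CE, and 52.2, 57.2 and 56.9 in CEL. The 4 groups did not overlap and stood in the order NC, LPS, CE, CEL. The change was -0.27 ± 0.06 (SE, adjusted p = 0.0033) in LPS against NC, -0.45 ± 0.06 (SE, adjusted p = 8.39e-05) in CE against LPS and -0.44 ± 0.06 (SE, adjusted p = 0.000409) in CEL against CE. MCM6 (chr2:135839626-135876426), a helicase subunit, measured 486, 472 and 481 CPM in NC, 319, 318 and 300.5 in LPS, 299, 252 and 278 in CE, and 247, 258 and 273 in CEL. All NC libraries lay well above every other library, and CE and CEL overlapped. Its change was -0.62 ± 0.06 (SE, adjusted p = 7.22e-06) in LPS against NC, -0.80 ± 0.06 (SE, adjusted p = 3.85e-07) in CE against NC and -0.89 ± 0.06 (SE, adjusted p = 1.27e-07) in CEL against NC. In CE against LPS the change of -0.18 (adjusted p = 0.0279) was lost when NC 3, LPS 1, LPS 2, CE 2 or CE 3 was left out (adjusted p from 0.0611 to 0.088).

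ORC6 (chr16:46689643-46698394), the smallest subunit of the origin recognition complex, went the other way in the model, at 51.99, 52.9 and 54.7 CPM in NC, 60.7, 62.8 and 65.7 in LPS, 50, 44.1 and 43.03 in CE, and 32.2, 33.6 and 34.5 in CEL. The LPS libraries were the highest and the CEL libraries the lowest, without overlap between any of the 4 groups. It rose by 0.25 (adjusted p = 0.00938) in LPS, fell by 0.46 (adjusted p = 0.00011) from there in CE and stood at -0.45 (adjusted p = 0.000568) in CEL against CE. ORC1 (chr1:52372829-52404459), the subunit that cycles with G1, measured 84.01, 88.05 and 83.3 CPM in NC, 57.8, 60.2 and 58.9 in LPS, 79.4, 67.6 and 72.5 in CE, and 60.3, 56.9 and 60.02 in CEL. It fell in LPS (-0.53, adjusted p = 2.91e-05), was higher in CE than in LPS (0.31, adjusted p = 0.00127), and was lower again in CEL than in CE (-0.31, adjusted p = 0.00379), a call lost when NC 3 or CE 3 was left out (adjusted p from 0.0519 to 0.0989). LPS and CEL libraries overlapped. MCM3 (chr6:52264009-52284881), another helicase subunit, measured 599.5, 586 and 580.5 CPM in NC, 372, 364 and 363 in LPS, 443, 376 and 422 in CE, and 400.2, 413 and 426 in CEL. The NC libraries stood clear of the rest. Its decrease in LPS, -0.68 ± 0.05 (SE, adjusted p = 1.34e-06), was the largest by size among the members called there. MCM3 in CE was higher than in LPS by 0.18 (adjusted p = 0.0196), a call lost when NC 3, LPS 2, LPS 3, CE 1 or CE 3 was left out (adjusted p from 0.0518 to 0.209), and in CEL by 0.17 (adjusted p = 0.0185), lost when LPS 2 or CEL 3 was left out (adjusted p from 0.0522 to 0.0645).

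Of the remaining helicase subunits, MCM7 fell in LPS (-0.48, adjusted p = 0.00309) and was lower in CEL than in NC, at -0.997 (adjusted p = 6.4e-06). For MCM2, MCM4 and MCM5 the CE libraries differed widely among themselves. MCM2 measured 73.9, 84.99 and 81.97 CPM in NC, 55.4, 45.99 and 73.5 in LPS, 33.7, 99.5 and 37.9 in CE, and 48.8, 33.6 and 26 in CEL. The CE 2 value exceeded every NC value, whereas CE 1 and CE 3 lay below every LPS value. With all libraries MCM2 changed by -0.03 (adjusted p = 0.955) in CE against LPS, and without CE 2, at -0.70 (adjusted p = 0.0259). MCM4 and MCM5 moved in the same way, to -0.71 (adjusted p = 0.00513) and -0.59 (adjusted p = 0.0142) without CE 2. The means of CEL and NC do not include CE 2, although the estimate of spread shared by all groups does. In CEL against NC these genes were lower, MCM2 at -1.15 (adjusted p = 0.0183), MCM4 at -1.20 (adjusted p = 0.00228) and MCM5 at -0.73 (adjusted p = 0.0469). The MCM2 call was lost when CEL 2 or CEL 3 was left out (adjusted p from 0.0567 to 0.0723), and the MCM5 call when NC 1, NC 2, NC 3, LPS 1, LPS 2, LPS 3, CEL 2 or CEL 3 was left out (adjusted p from 0.0538 to 0.149).

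Of 6 genes of helicase activation, 1 fell in LPS against NC (23.5% of all tested genes), 4 in CE against LPS (20.7%) and 5 in CEL against LPS (27.2%), and none rose in these 3 comparisons. GINS2 (chr16:85676198-85690073), a subunit of the GINS complex, measured 56.5, 51.9 and 52.3 CPM in NC, 37.3, 38.4 and 34.5 in LPS, 31.01, 22.7 and 26.4 in CE, and 27.2, 27.2 and 29.7 in CEL. Each group but CE and CEL stood clear of the others. The change was -0.55 ± 0.10 (SE, adjusted p = 0.000919) in LPS against NC and -0.46 ± 0.10 (SE, adjusted p = 0.00254) in CE against LPS, and 0.07 in CEL against CE, which did not pass. MCM10 (chr10:13161554-13211104), which helps fire origins, measured 95.9, 88.2 and 91.7 CPM in NC, 90.7, 87.2 and 83.6 in LPS, 67.5, 54.96 and 64.2 in CE, and 60.9, 60.4 and 62.1 in CEL. NC and LPS overlapped, as did CE and CEL, and both pairs were separate from each other. It differed by -0.08 (adjusted p = 0.419) in LPS against NC and fell by 0.49 ± 0.07 (SE, adjusted p = 0.000162) in CE against LPS. GINS3 fell with it in CE against LPS, at -0.47 (adjusted p = 0.0017). CDC45 fell by 0.32 (adjusted p = 0.0207) there, a call lost when LPS 3 was left out (adjusted p = 0.0528), and fell by 0.66 (adjusted p = 0.000169) in CEL against LPS. GINS1 measured 4.69, 5.25 and 5.20 CPM in NC, 5.40, 5.16 and 6.30 in LPS, 3.35, 10.7 and 4.72 in CE, and 6.49, 4.61 and 4.46 in CEL, with its highest value in CE 2. GINS4 stayed between 1.13 and 2.18 CPM and fell in CEL against LPS, at -0.67 (adjusted p = 0.0201), a call lost when LPS 2 or CEL 3 was left out (adjusted p from 0.0579 to 0.0695). GINS1 was the only member of this role that passed in none of the 6 comparisons.

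All 6 genes of the clamp and its loader fell in the model, against 23.5% of all tested genes, and their changes with the drugs differed. The call of RFC3 in the model was lost when single libraries were left out, as given below. PCNA (chr20:5114953-5126626), the sliding clamp, measured 359, 331 and 354 CPM in NC, 241, 245 and 232 in LPS, 294, 239 and 279 in CE, and 257, 279.5 and 297 in CEL. NC was highest, LPS lay below CEL, and CE overlapped both LPS and CEL. PCNA fell by 0.54 ± 0.07 (SE, adjusted p = 0.000123) in LPS, and in CEL it was 0.21 (adjusted p = 0.0295) above LPS, a call lost when LPS 1, LPS 3, CEL 2 or CEL 3 was left out (adjusted p from 0.0644 to 0.116). PCNA changed by 0.18 (adjusted p = 0.0693) in CE against LPS, or 0.27 (adjusted p = 0.00104) without CE 2. RFC1 (chr4:39287456-39366375), the large subunit of the loader, measured 192, 183 and 192 CPM in NC, 146, 145 and 138 in LPS, 212, 188 and 214 in CE, and 192, 196 and 214 in CEL. The LPS libraries were the low group, and CE overlapped both NC and CEL. RFC1 fell by 0.41 ± 0.06 (SE, adjusted p = 0.000134) in LPS and rose by 0.52 ± 0.06 (SE, adjusted p = 1.54e-05) in CE against LPS, and it differed from NC by 0.12 (adjusted p = 0.093) in CE, or 0.19 (adjusted p = 0.00274) without CE 2.

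RFC2 had the same shape as RFC1 at 72.5, 70.5 and 70.5 CPM in NC, 57.02, 55.9 and 59.9 in LPS, 76.97, 67.5 and 69.9 in CE, and 70.9, 75.3 and 79.8 in CEL. It fell by 0.31 (adjusted p = 0.00202) in LPS and rose by 0.31 (adjusted p = 0.00151) in CE and by 0.39 (adjusted p = 0.00026) in CEL, both against LPS. RFC3 (chr13:33818049-33966558), a small subunit, measured 124, 118 and 129 CPM in NC, 106, 109 and 87.2 in LPS, 63.5, 51.98 and 57.05 in CE, and 57.3, 62.6 and 65.1 in CEL. All CE and CEL libraries were at or below 65.1 CPM and all LPS libraries at or above 87.2 CPM. It fell by 0.80 ± 0.10 (SE, adjusted p = 2.83e-05) in CE against LPS, a 1.75-fold decrease, while its change of -0.30 (adjusted p = 0.0215) in LPS was lost when NC 1, NC 3 or LPS 3 was left out (adjusted p from 0.0559 to 0.0769). RFC4 (chr3:186789880-186807058) measured 104, 99.3 and 107 CPM in NC, 90.1, 93.2 and 87.5 in LPS, 89.7, 83.5 and 86.3 in CE, and 58.4, 60.98 and 64.2 in CEL. Here LPS and CE overlapped and the CEL libraries alone were low. RFC4 differed by -0.06 (adjusted p = 0.364) in CE against LPS and fell by 0.50 ± 0.05 (SE, adjusted p = 6.66e-05) in CEL against CE. RFC5 fell in LPS, at -0.42 (adjusted p = 0.00171), and its changes of 0.15 (adjusted p = 0.169) in CE and 0.03 (adjusted p = 0.77) in CEL, both against LPS, did not pass, whereas without CE 2 the change in CE was 0.21 (adjusted p = 0.0426).

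Among primase and polymerase genes, the second subunit of polymerase epsilon had one of the largest decreases of the whole set. POLE2 (chr14:49643555-49688422) measured 30.6, 29.6 and 32.4 CPM in NC, 29.5, 28.8 and 26.6 in LPS, 12.3, 10.2 and 11.1 in CE, and 7.70, 8.17 and 8.65 in CEL. NC and LPS adjoined, CE was at most 12.3 CPM and CEL at most 8.65 CPM, and no groups overlapped. POLE2 changed by -0.13 (adjusted p = 0.24) in LPS, which did not pass, fell by 1.33 ± 0.09 (SE, adjusted p = 2.36e-07) in CE against LPS, 2.52-fold, and was lower, at -0.46 ± 0.09 (SE, adjusted p = 0.003) in CEL than in CE. In CEL against LPS the decrease was 3.46-fold. POLA1 (chrX:24693919-24996986), the catalytic subunit of polymerase alpha, measured 113, 108 and 118 CPM in NC, 88.5, 93.2 and 89.6 in LPS, 74.8, 62.04 and 67.02 in CE, and 55.8, 55.97 and 59.3 in CEL. The 4 groups were in the order NC, LPS, CE, CEL without overlap. It fell by 0.33 ± 0.07 (SE, adjusted p = 0.00208) in LPS and fell by 0.41 ± 0.07 (SE, adjusted p = 0.000343) in CE against LPS, and its change of -0.25 (adjusted p = 0.0184) in CEL was lost when NC 3, CE 1, CE 3, CEL 1 or CEL 2 was left out (adjusted p from 0.0562 to 0.196).

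POLA2 (chr11:65261762-65305589), the regulatory subunit of the same polymerase, rose in the model, at 47.2, 46.2 and 45.8 CPM in NC, 61.4, 60.4 and 64.6 in LPS, 42.1, 37.9 and 38.1 in CE, and 35.3, 37.9 and 33.3 in CEL. The LPS libraries were the high group. It rose by 0.42 ± 0.06 (SE, adjusted p = 0.000228) and was lower, at -0.66 ± 0.06 (SE, adjusted p = 5.96e-06) in CE than in LPS. PRIM1 (chr12:56731596-56752373), the catalytic primase subunit, changed by -0.12 (adjusted p = 0.27) in LPS, fell by 0.40 (adjusted p = 0.00209) in CE against LPS and fell by 0.54 (adjusted p = 0.00106) in CEL against CE. PRIM2, the large primase subunit, measured 85.1, 80.2 and 84.03 CPM in NC, 72.8, 69.6 and 66.4 in LPS, 92.4, 76.1 and 90.5 in CE, and 73.2, 77.01 and 80.9 in CEL. CE 1 and CE 3 stood above all NC libraries and CE 2 did not. PRIM2 was lower in LPS than in NC, at -0.26 (adjusted p = 0.0152), a call lost when NC 1, NC 3 or LPS 3 was left out (adjusted p from 0.0517 to 0.0618), and rose in CE against LPS by 0.31 (adjusted p = 0.00451), lost when CE 3 was left out (adjusted p = 0.0693).

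POLD3 (chr11:74493851-74669117), an accessory subunit of polymerase delta, measured 145, 134 and 140.2 CPM in NC, 137, 137 and 125 in LPS, 154, 136 and 146 in CE, and 164, 169.9 and 184 in CEL. The CEL libraries were above all others. It rose in CEL against LPS by 0.37 (adjusted p = 0.000316). It was the only member higher in CEL than in CE, by 0.24 ± 0.06 (SE, adjusted p = 0.0145), and than in NC, by 0.30 ± 0.06 (SE, adjusted p = 0.00108), and the first of these was lost when CEL 3 was left out (adjusted p = 0.0609). POLD3 changed by 0.13 (adjusted p = 0.109) in CE against LPS, or 0.18 (adjusted p = 0.0179) without CE 2. POLD2 was lower in LPS (-0.64, adjusted p = 0.0188), a call lost when NC 2, LPS 1 or LPS 2 was left out (adjusted p from 0.0537 to 0.0717), and lower in CEL than in NC (-1.26, adjusted p = 0.000146). POLD2 changed by -0.15 (adjusted p = 0.554) in CE against LPS, and the value without CE 2 was -0.46 (adjusted p = 0.00826). POLE, the catalytic subunit of polymerase epsilon, measured 9.26, 11.5 and 10.3 CPM in NC, 13.6, 10.8 and 22.7 in LPS, 4.58, 43.6 and 6.17 in CE, and 12.98, 6.81 and 4.35 in CEL. CE 2 was the highest of all libraries, and CE 1 and CE 3 lay below every NC library. POLE passed in no comparison with all libraries and changed by -1.54 (adjusted p = 0.00723) in CE against LPS without CE 2.

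In strand joining and single-strand binding, FEN1, RPA1 and RPA3 fell in the model and with the drugs, while RPA2 and LIG1 did not. FEN1 (chr11:61792637-61797244), the flap nuclease of Okazaki fragments, measured 203, 193 and 202 CPM in NC, 176, 175 and 172 in LPS, 128, 108 and 114 in CE, and 112, 118 and 118 in CEL. CE and CEL overlapped and both were clear of LPS. It fell by 0.58 ± 0.06 (SE, adjusted p = 7.04e-06) in CE against LPS and fell by 0.77 ± 0.06 (SE, adjusted p = 3.37e-07) in CE against NC. In LPS against NC its change of -0.19 (adjusted p = 0.0182) was lost when NC 1, NC 3 or LPS 3 was left out (adjusted p from 0.054 to 0.087). RPA3 (chr7:7636518-7718607), the small subunit of the single-strand binding protein RPA, measured 67.1, 62.8 and 65.2 CPM in NC, 52.9, 54.8 and 48.4 in LPS, 48.2, 38.6 and 45.3 in CE, and 31.2, 36.8 and 33.3 in CEL. The groups stood in the order NC, LPS, CE, CEL without overlap, LPS and CE adjoining. It fell by 0.32 (adjusted p = 0.012) in LPS and was lower, at -0.95 ± 0.09 (SE, adjusted p = 2.3e-06) in CEL than in NC, while the change of -0.24 (adjusted p = 0.0442) in CE against LPS was lost when NC 1, NC 2, NC 3, LPS 1, LPS 2, CE 2, CE 3 or CEL 3 was left out (adjusted p from 0.0557 to 0.137). The large subunit RPA1 fell in LPS (-0.28, adjusted p = 0.00521) and in CE against LPS (-0.30, adjusted p = 0.00365).

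RPA2, the middle subunit, measured 75.1, 71.4 and 77.8 CPM in NC, 67.2, 70.2 and 65.3 in LPS, 77.1, 63.1 and 74.3 in CE, and 75.01, 78.5 and 85.2 in CEL. The CE libraries spread over the range of NC and LPS, and all CEL libraries lay above all LPS libraries. It rose in CEL against LPS by 0.24 (adjusted p = 0.0233), a call lost when LPS 1, LPS 3 or CEL 3 was left out (adjusted p from 0.0566 to 0.0936). RPA2 changed by 0.08 (adjusted p = 0.426) in CE against LPS, or 0.17 (adjusted p = 0.0378) without CE 2. LIG1, the ligase that seals Okazaki fragments, measured 2.53, 3.70 and 2.11 CPM in NC, 2.85, 2.46 and 5.42 in LPS, 1.08, 10.97 and 1.59 in CE, and 2.99, 1.95 and 1.18 in CEL. CE 2 was the highest library by a wide margin, and CE 1 and CE 3 were among the 3 lowest. LIG1 changed by 0.35 (adjusted p = 0.733) in CE against LPS with all libraries and fell by 1.41 (adjusted p = 0.0187) without CE 2.

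In CE against LPS, nucleotide supply held the member with the largest decrease, RRM2, and also 2 members that rose, TYMS and TK1. RRM2 (chr2:10120698-10131419), the S-phase subunit of ribonucleotide reductase, measured 171, 172 and 164 CPM in NC, 242, 242 and 228 in LPS, 96.4, 82.7 and 91.4 in CE, and 66.3, 66.2 and 73.1 in CEL. The groups did not overlap, with LPS highest and CEL lowest. RRM2 rose by 0.49 ± 0.06 (SE, adjusted p = 4.91e-05) in LPS, fell by 1.40 ± 0.06 (SE, adjusted p = 1.48e-08) in CE against LPS, 2.63-fold, and was lower, at -0.40 ± 0.06 (SE, adjusted p = 0.000823) in CEL than in CE. RRM1 (chr11:4094707-4138876), the large subunit of the same enzyme, measured 441, 409 and 436 CPM in NC, 428, 421 and 397 in LPS, 472, 382 and 447 in CE, and 334, 369 and 382 in CEL. CEL was the low group and overlapped only CE 2. RRM1 changed by 0.06 (adjusted p = 0.535) in CE against LPS, or 0.15 (adjusted p = 0.0319) without CE 2, and was lower, at -0.26 (adjusted p = 0.0292) in CEL than in CE, a call lost when NC 3, CE 1, CE 3, CEL 1 or CEL 2 was left out (adjusted p from 0.0639 to 0.272).

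Taken within a library, the ratio of RRM2 to RRM1 does not depend on scaling between libraries. By TPM it was 0.459 ± 0.0403 (SD, n = 3) in NC, 0.658 ± 0.0587 in LPS, 0.248 ± 0.014 in CE and 0.225 ± 0.025 in CEL. RRM2B, the ribonucleotide reductase subunit induced by p53 and used outside S phase, is not a member. It rose in CE against LPS by 1.05 ± 0.08 (SE, adjusted p = 5.63e-07). RRM2B over RRM2 was 0.273 ± 0.00885 in NC, 0.254 ± 0.0241 in LPS, 1.37 ± 0.111 in CE and 2.09 ± 0.16 in CEL. Thus RRM2B was the less abundant of the pair in all 6 NC and LPS libraries and the more abundant in all 6 libraries with drugs. These ratios were chosen after the values had been seen and carry no test.

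TYMS (chr18:657604-673578), which makes thymidylate, measured 325, 319.9 and 320.0 CPM in NC, 259, 265 and 265 in LPS, 307, 281 and 295 in CE, and 238, 234 and 256 in CEL. The groups did not overlap and stood in the order NC, CE, LPS, CEL. It fell by 0.29 ± 0.04 (SE, adjusted p = 0.000196) in LPS and fell by 0.28 ± 0.04 (SE, adjusted p = 0.000734) in CEL against CE. In CE against LPS its increase of 0.16 (adjusted p = 0.00828) was lost when NC 3 or CE 3 was left out (adjusted p from 0.0765 to 0.134), and with upper quartile factors the change was -0.013. TK1, the S-phase thymidine kinase of the salvage pathway, measured 41.2, 44.1 and 43.7 CPM in NC, 32.3, 33.5 and 36.05 in LPS, 43.95, 62.7 and 46.6 in CE, and 44.3, 41.99 and 36.6 in CEL. Every CE library was above every LPS library, with CE 2 the highest. It rose in CE against LPS by 0.59 ± 0.12 (SE, adjusted p = 0.00183), and its change of -0.34 (adjusted p = 0.0403) in LPS against NC was lost when NC 1, NC 2, NC 3, LPS 1, LPS 2, LPS 3 or CEL 2 was left out (adjusted p from 0.0503 to 0.119).

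Of the G1/S regulators, both E-type cyclins changed, in different ways. CCNE1 (chr19:29811898-29824308), which with CDK2 starts S phase, measured 28.7, 27.3 and 30.9 CPM in NC, 27.2, 26.2 and 26.6 in LPS, 11.6, 12.7 and 11.8 in CE, and 9.87, 9.62 and 8.33 in CEL. NC and LPS adjoined at 26.2 to 30.9 CPM, while no CE library exceeded 12.7 and no CEL library exceeded 9.87. It changed by -0.12 (adjusted p = 0.251) in LPS, fell by 1.15 ± 0.08 (SE, adjusted p = 4.4e-07) in CE against LPS, 2.22-fold, and was lower, at -0.37 (adjusted p = 0.00654) in CEL than in CE, a call lost when CE 3 was left out (adjusted p = 0.061). CCNE2, its paralogue, measured 88.8, 84.1 and 87.7 CPM in NC, 125, 129 and 109 in LPS, 89.97, 83.2 and 93.3 in CE, and 68.8, 77.8 and 77.2 in CEL. The LPS libraries were the high group, NC overlapped CE, and CEL was lowest. CCNE2 rose by 0.48 ± 0.07 (SE, adjusted p = 0.000259) in LPS, fell by 0.45 ± 0.07 (SE, adjusted p = 0.000356) in CE against LPS and differed from NC by 0.03 (adjusted p = 0.719) in CE. By TPM, CCNE1 over CCNE2 within a library was 0.453 ± 0.021 (SD, n = 3) in NC, 0.297 ± 0.0251 in LPS, 0.187 ± 0.0199 in CE and 0.175 ± 0.0143 in CEL, so CCNE2 was the more abundant in every library. E2F1 and E2F2, the activator E2F genes in the set, were at most 1.64 and 1.44 CPM in any library, highest in CE 2, and passed in no comparison. They summed to 190 and 134 counts over the 12 libraries. Their longest transcripts are 62.5% and 57.5% GC, and CE 2 was at 3.54-fold and 2.82-fold the mean of CE 1 and CE 3. Values this low do not show that these genes were silent or unchanged.

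**Figure D3:**
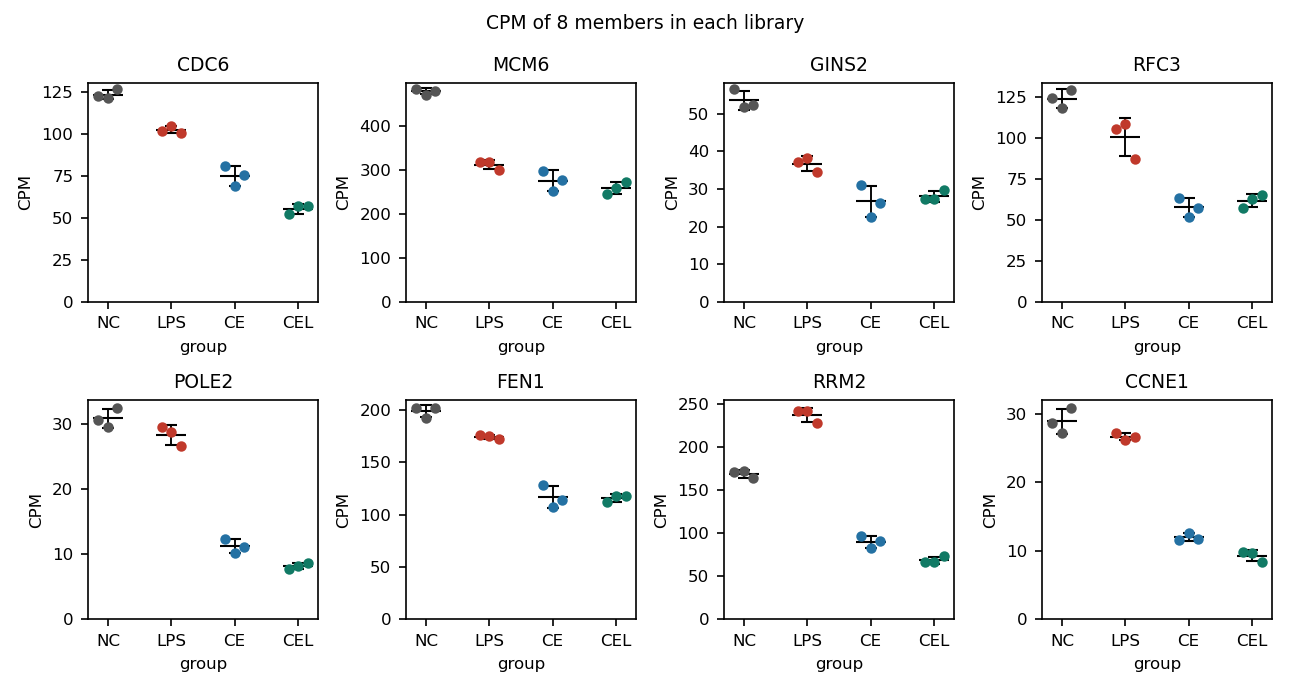
CPM of 8 members in each library (points), with the group mean and SD (bars), axes from 0. RRM2 is highest in LPS, MCM6 drops from NC to all other groups, and POLE2 and CCNE1 are similar in NC and LPS and lower in CE and CEL.

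In the replication-coupled chromatin group, CHAF1B (chr21:36385378-36419015), the middle subunit of the histone chaperone CAF-1, measured 43.3, 42.2 and 42.1 CPM in NC, 29.2, 30.2 and 31.7 in LPS, 24.5, 21.9 and 23.4 in CE, and 21.8, 22.1 and 23.6 in CEL. NC, LPS and the drug groups were separate, and CE overlapped CEL. It fell by 0.49 ± 0.06 (SE, adjusted p = 5.59e-05) in LPS and fell by 0.38 ± 0.06 (SE, adjusted p = 0.000294) in CE against LPS. UHRF1 (chr19:4903080-4962154), which carries DNA methylation through replication, measured 16.4, 23.5 and 20.04 CPM in NC, 16.4, 13.1 and 24.6 in LPS, 4.63, 32.3 and 6.17 in CE, and 11.4, 6.11 and 4.30 in CEL. CE 2 was the highest of all libraries, and CE 1, CE 3, CEL 2 and CEL 3 were the lowest. UHRF1 changed by -0.33 (adjusted p = 0.705) in CE against LPS with all libraries and fell by 1.73 (adjusted p = 0.00199) without CE 2. CHAF1A, the large CAF-1 subunit, measured 4.57, 5.34 and 4.22 CPM in NC, 6.24, 4.59 and 11.8 in LPS, 1.23, 18.2 and 2.75 in CE, and 4.50, 2.76 and 2.04 in CEL. CE 2 was highest and CE 1 lowest. The change in CE against LPS went from -0.03 (adjusted p = 0.979) to -1.91 (adjusted p = 0.00381) when CE 2 was left out, and in CE against NC from 0.65 (adjusted p = 0.479) to -1.23 (adjusted p = 0.0349).

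Most of the members that varied widely inside the CE group were GC-rich. Of the 45 tested members, 15 had their highest CE value in CE 2 (all tested genes: 41.8%). Their longest GENCODE v29 transcripts had a median GC content of 57% (41.4% in GINS1 to 62.8%), against 45.5% (36.9 to 54.5%) for the other 30. CE 2 exceeded the mean of CE 1 and CE 3 by 9.15-fold in CHAF1A, 8.21-fold in LIG1, 8.13-fold in POLE and 5.98-fold in UHRF1. Of the 15, 13 did not pass in CE against LPS, and of the other 30, 6 did not. Across the 45 members, Pearson's r of GC content with the log2 difference of CE 2 from CE 1 and CE 3 was 0.563, and it was 0.516 across 13247 genes. These are descriptions over genes of the same libraries. In a smooth fit over all genes, transcripts of 60% GC stood at 0.63 (log2) from their mean over libraries in CE 2, at 0.39 in LPS 3, and at -0.37 and -0.30 in CE 1 and CE 3. In CEL 1, CEL 2 and CEL 3 they stood at 0.07, -0.18 and -0.39. Decreases of GC-rich members without CE 2 thus rest on CE libraries in which such transcripts stood low. MCM2, MCM5 and MCM7, at 58.1%, 57% and 57.6% GC, were among the members lower in CEL than in NC, and the part of GC content in this was not tested. With an offset for GC content in every library, 4 members in place of 7 were higher in CE than in LPS. CDT1 and POLD1, at 64.9% and 65% GC, were the most GC-rich members and were those below the filter. The part of library preparation in these differences was not tested.

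**Figure D4:**
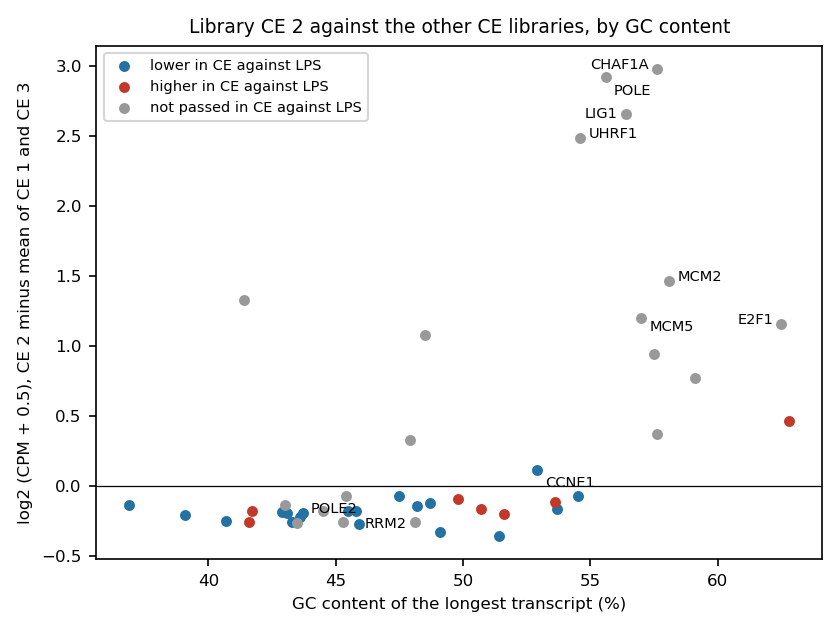
Each point is 1 of the 45 tested members, with the GC content of its longest transcript against the log2 difference between CE 2 and the mean of CE 1 and CE 3. Members that fell in CE against LPS (blue) lie between -0.5 and 0.5, and the points above 2 (CHAF1A, POLE, LIG1, UHRF1) did not pass (grey).

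Further replication genes outside the set were read from lists chosen with earlier results of these data known, and their counts are to be read against the shares of all tested genes, which were 23.5% lower and 22.4% higher in LPS, 20.7% and 28.8% in CE against LPS, and 14.8% and 8.78% in CEL against CE. Among 15 tested origin partners, 6 fell and 3 rose in LPS, 4 fell and 6 rose in CE against LPS, and 4 fell and 0 rose in CEL against CE. CDC7, the kinase that activates the MCM helicase, fell in LPS, at -0.47 (adjusted p = 6.45e-05) and in CEL against CE, at -1.08 ± 0.06 (SE, adjusted p = 1.04e-06). ORC2 fell in LPS (-0.54, adjusted p = 4.67e-05), while ORC3 rose in CE against LPS (0.71, adjusted p = 4.27e-05). Of 16 tested fork and checkpoint genes, 3 fell in LPS, 6 in CE against LPS and 7 in CEL against CE, and 1, 2 and 0 rose. ATR, the apical replication stress kinase, rose in LPS by 0.34 (adjusted p = 0.000237) and fell in CE against LPS, at -0.71 (adjusted p = 7.08e-07). Its effector kinase CHEK1 rose in CE against LPS, by 0.79 (adjusted p = 1.02e-06). TIMELESS and CLSPN, which couple the fork to that checkpoint, fell in CEL against CE, at -0.49 (adjusted p = 3.74e-05) and -0.43 (adjusted p = 0.000105).

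Among pocket proteins and E2F genes outside the set, 3 of 16 rose and 2 fell in LPS. In LPS against NC, RB1 rose by 0.95 ± 0.05 (SE, adjusted p = 6.53e-08) and the repressor E2F7 by 0.91 ± 0.06 (SE, adjusted p = 1.99e-07). In CE against LPS, 10 of these 16 rose and 2 fell, with a median of 0.40, with RB1 at 0.69 (adjusted p = 1.01e-06) and LIN54, a DNA-binding subunit of the complex that joins E2F and MYB regulation, at 0.81 (adjusted p = 4.06e-07). Of 8 G1 cyclins and kinases, 5 fell and 2 rose in LPS, with changes from -4.64 to 1.995, and both rises were of at least 2-fold. In CE against LPS, 2 fell and 1 rose. CDK4, the G1 kinase, fell in LPS, at -0.58 (adjusted p = 1.36e-05) and again in CE against LPS, at -0.29 (adjusted p = 0.00188). SKP2, which targets the inhibitor p27 for degradation, fell by 0.44 (adjusted p = 3.63e-05) in LPS and fell by 0.42 (adjusted p = 5.03e-05) in CE against LPS. CDKN1A, which encodes the inhibitor p21, rose by 4.49 ± 0.71 (SE, adjusted p = 0.000332) in LPS. CDKN2D rose there too, by 1.17 (adjusted p = 0.000206). Of the 7 CDK inhibitors, 4 passed the low-count filter, and none of the 4 passed the test in CE against LPS or in CEL against CE. The 7 summed to 49.51, 158.5 and 57.68 TPM in CE 1, CE 2 and CE 3. With CE libraries this far apart, the lack of a call does not show that these genes were unchanged. Among 10 other nucleotide enzymes, 5 fell and 3 rose in LPS, and 5 fell and 2 rose in CE against LPS. DUT was 1 of those that fell in LPS (-0.57, adjusted p = 3.2e-05).

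Homologous recombination genes, which serve the same phase, gave 4 of 10 lower in LPS, 4 in CE against LPS and 6 in CEL against CE, with 2, 1 and 0 higher. BRCA1 fell by 0.67 (adjusted p = 1.7e-07) in CE against LPS and fell by 0.55 (adjusted p = 6.59e-06) in CEL against CE. BRCA2 rose by 0.82 (adjusted p = 2.54e-06) in LPS and fell by 0.64 (adjusted p = 1.59e-05) in CE against LPS.

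Next to a list of 22 G2 and mitosis genes, the members had medians nearer to 0 in both comparisons of CEL below. All 22 fell in CEL against CE, with a median of -0.94 (log2), whereas 15 of 45 members fell with a median of -0.28. Without CE 2 the medians were -1.003 and -0.11. In CEL against LPS, 22 of 22 mitosis genes fell with a median of -1.35, and 26 of 45 members with a median of -0.51. KIF20A, a kinesin of cytokinesis, fell by 2.17 (adjusted p = 7.53e-08) and CDC20, an activator of the anaphase-promoting complex, at -1.36 (adjusted p = 2.16e-07) in CEL against CE. No replication member passed with a decrease of 2-fold in that comparison. Estimates that did not pass reached -1.245 (CHAF1A), -1.164 (POLE) and -1.145 (LIG1). Without CE 2 these were 0.651, 0.598 and 0.624, and none passed. Of all tested genes, 14.8% fell in CEL against CE and 27.2% in CEL against LPS. In CE against LPS, where 20.7% of all tested genes fell, 14 of 22 mitosis genes fell and 1 rose, with a median of -0.45. There 19 of 45 members fell and 7 rose, with a median of -0.15. Without CE 2 these medians were -0.40 and -0.35. In LPS against NC the order was the reverse, with 3 of 22 mitosis genes lower and 6 higher at a median of 0.04, and 21 of 45 members lower at -0.20. The difference between the lists was not tested.

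**Figure D5:**
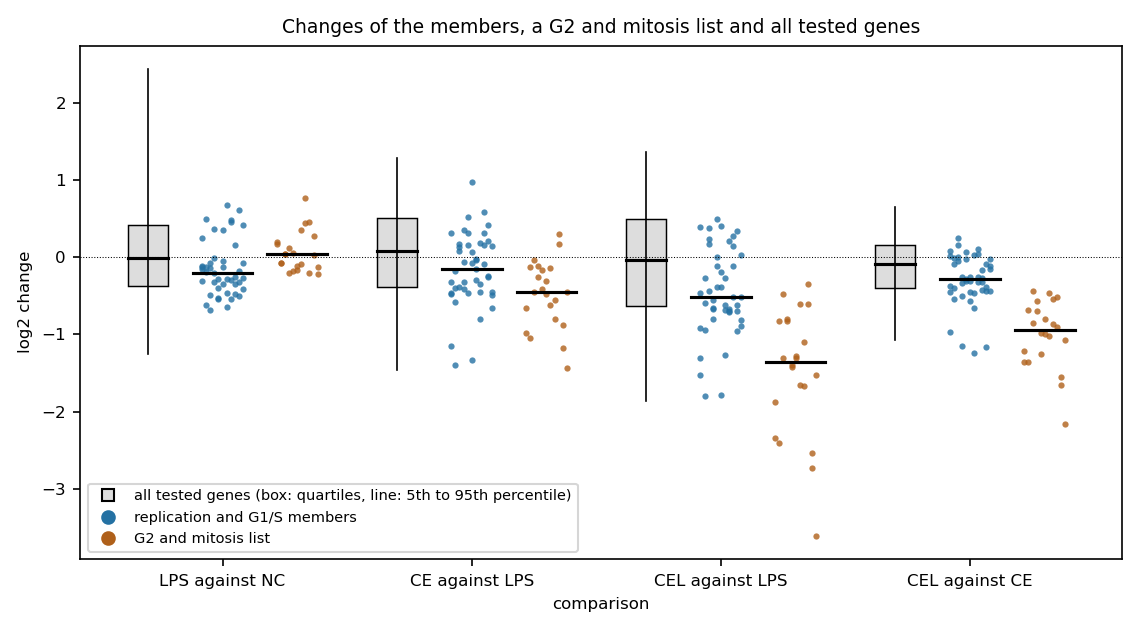
Log2 changes in 4 comparisons for all tested genes (grey box with quartiles, line from the 5th to the 95th percentile), the 45 members (blue) and the 22 G2 and mitosis genes (brown), with a black bar at each median. In CEL against LPS and CEL against CE every mitosis gene lies below 0, while the members spread on both sides of it.

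Members with the E2F letters shown in the promoter windows were set beside those without. In CE against LPS, 8 of 19 tested members with E2F letters fell and 9 of 19 without them did, at medians of -0.09 and -0.15. In CEL against LPS, the counts were 10 and 12 of 19, at medians of -0.51 and -0.51. In CEL against CE they were 5 and 8 of 19 (-0.27 and -0.31), and in CE against NC 12 and 13 of 19 (-0.49 and -0.27). In LPS against NC, 9 and 11 of 19 fell (-0.27 and -0.20), and in CEL against NC 13 and 14 (-0.58 and -0.60). Of all tested genes, 20.7% fell in CE against LPS, 27.2% in CEL against LPS and 14.8% in CEL against CE. The shares were 29.4% in CE against NC, 23.5% in LPS against NC and 33% in CEL against NC. RRM2 and CCNE1, with no match in these windows, were at -1.40 and -1.15 in CE against LPS, and CDC6, which holds 1, was at -0.45. This split was not tested.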

How the data were processed

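Total RNA of 12 THP-1 libraries was poly(A)-selected and sequenced, and reads were assigned to hg38, per the submitters' processing notes. No aligner or counting tool is named in the sources used. Deposited were 1 table of estimated counts per gene (29.3% of the nonzero values are not whole, with a tolerance of 0.005) and 1 table of TPM, each with 78932 genes, of which 42745 carry a symbol. Counting by strand is not stated, so a member and an antisense or overlapping transcript, as at TYMS, cannot be told apart. Totals ran from 17737213 to 23183429 counts.

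Counts were rounded, filtered with filterByExpr, scaled by the trimmed mean of M-values and tested with edgeR 4.0.16 (R 4.3.3) by quasi-likelihood over all 4 groups in 1 fit, with Benjamini-Hochberg adjustment over 14065 genes and a threshold of 0.05. The procedure was tested on simulated data with a smaller spread than these libraries and with changes of 2-fold or more only. That simulation does not show how it performs on smaller changes or with a library such as CE 2. Standard errors are the log2 change divided by the square root of F. TPM were used for levels between genes, and in limma 3.58.1 on log2(TPM + 1). The members and lists were chosen with earlier results of these data known. Named genes are, in each role, the 2 members with the smallest p over the 4 groups, members that moved against most called ones, up to 3 members with the smallest p in a comparison, and up to 2 genes of each context list per comparison. Some further members were chosen after their values were seen: MCM2, MCM4, MCM5, POLE, LIG1 and CHAF1A for library CE 2, and GINS1, PRIM2 and others to complete a role.

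The labels give each replicate number as a batch, which pairs libraries across groups. Of 18 same-numbered pairs of libraries, 6 correlated at over 0.1 in their deviations from the group means over 7460 genes with a mean log2 CPM over 3 (range -0.857 to 0.728), and 1 library correlated best with its own number. Alternatives were other scaling factors, DESeq2 1.42.0, no filter, the replicate block, the compared groups alone, TPM fits and each library left out. Limma on log2 CPM, limma on rescaled TPM, the fit without NC 3 and LPS 1, the GC offset, and the block with that offset were chosen after seeing the data.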

Additional observations from a re-analysis of the deposited data

How the results depend on the processing

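Counts of members are given as lower or higher. Limma on log2(TPM + 1) and on log2(TPM + 0.1) gave the fewest: 1 and 1 lower in LPS against NC (21 in edgeR), 7 and 7 lower and 0 and 0 higher in CE against LPS (19 and 7), 13 and 13 lower and 1 and 1 higher in CEL against LPS (26 and 6), 0 and 0 lower and 0 and 0 higher in CEL against CE (15 and 1), 11 and 10 lower in CE against NC (27), 14 and 14 lower and 0 and 0 higher in CEL against NC (31 and 1), and 16 and 17 differing among the 4 groups (34). After rescaling of TPM they were 14, 18, 24, 8, 25 and 30 lower, 2, 2, 0 and 0 higher in CE against LPS, CEL against LPS, CEL against CE and CEL against NC, and 33 over the groups. Upper quartile factors gave 2 higher in CE against LPS, 3 in CEL against LPS and 0 in CEL against NC. Library size alone gave 3, 3 and, in CEL against CE, 2 higher. With no filter 12 were lower in LPS against NC, and 2, 1, 0, 2 and 0 were higher in CE against LPS, CEL against LPS, CEL against CE, CE against NC and CEL against NC. With only the compared groups, 4 were lower and 0 higher in CEL against CE. Without NC 3 and LPS 1, 11 were lower in LPS against NC, 7 were lower in CEL against CE and 3 were higher in CEL against LPS. The GC offset gave 4 higher in CE against LPS and 2 in CE against NC, and 3 and 1 with the replicate block. With the replicate block alone, counts lower were 21, 18, 24, 13, 27 and 30 in LPS against NC, CE against LPS, CEL against LPS, CEL against CE, CE against NC and CEL against NC, and it moved no count by over 1.5 times. Leaving out 1 library at a time gave, in the same order, 17 to 22, 17 to 25, 22 to 30, 8 to 17, 25 to 28 and 28 to 32 lower, 4 to 4, 4 to 12, 4 to 8, 0 to 1, 0 to 2 and 1 to 2 higher, and 32 to 40 over the groups. Of 270 changes of members (45 in 6 comparisons), 77 took the other sign under at least 1 alternative, and 72 of these had not passed in edgeR. Those that turned sign and had passed in edgeR, or passed under the alternative, included TYMS in CE against LPS (-0.013, upper quartile). LIG1 and POLE in CE against LPS, positive with all libraries, were at -1.413 and -1.544 without CE 2 and passed there. RRM1 turned in CEL against LPS (0.014 and 0.014, TPM) and in CEL against NC (0.149 and 0.15, TPM). CCNE2 turned in CE against NC (-0.251 with upper quartile factors, -0.179 with the GC offset, -0.179 with the block and offset). CHAF1A turned in CE against NC (-1.226 without CE 2, and up to 1.149 without CE 1), as did RFC4 and TYMS (0.069 and 0.037, TPM). HELLS, outside the set, turned in CEL against NC (0.147 and 0.154, TPM). The cause was not tested. CDT1 and POLD1 had at most 18 and 9 counts per library, and the reason for these low counts was not tested.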
